A study of Mus musculus with 12 samples.

Results

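The genes described here make and break down prostaglandins, and were chosen by name: Pla2g4a, Ptgs1, Ptgs2, Ptges, Ptges2, Ptges3, Ptgr1 and Hpgd. Of these 8 genes, 7 have an entry among the 42329 of the expression table (Ptges3 has none under that symbol), and 6 are among the 13736 genes that passed the filter on low values, since Hpgd was listed at 0 in all 12 libraries. The data are RNA sequencing of MC38, a line of mouse colon adenocarcinoma. Its cells carried either sgControl, a control guide RNA, or sgHcar1, whose target Hcar1 encodes a cell surface receptor for lactate. Each was incubated with 20 mM lactate for 24 hours or with PBS, the saline vehicle. This gave 4 groups of 3 libraries: sgControl in PBS, sgControl in lactate, sgHcar1 in PBS and sgHcar1 in lactate. All groups are MC38 cells with a guide, so none is the unedited line, and the labels do not say whether the cells of a guide were a pool or a clone.

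Prostaglandins are short-lived lipid signals made from arachidonate, a fatty acid that phospholipase A2 cuts from membranes. The cyclooxygenases turn arachidonate into an unstable intermediate, from which terminal synthases make the active prostaglandins. Breakdown begins with a dehydrogenase and continues with reductases. In the colon the pathway is best known through the inducible cyclooxygenase, whose gene is Ptgs2: it is raised in many colorectal tumours and is a target of anti-inflammatory drugs.

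Values are FPKM (fragments normalised to gene length and to a scaling factor of the library), as the authors deposited them. Levels of different genes can therefore be set side by side. Changes are log2 differences of FPKM + 1 ± SE from limma with 3 libraries per group, with p-values adjusted by the Benjamini-Hochberg method over the 13736 genes of the fit and called at 0.05. On this scale changes of weakly expressed genes are understated. Nothing in the labels says that the libraries of 1 group are from separate cultures, and p-values therefore reflect only how these libraries vary, which may be technical. In bulk RNA, fewer cells that express a gene and less of its RNA per cell cannot be told apart.

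Libraries of a group resembled each other closely, with correlations of log2 values of 0.99 to 0.992, against 0.765 to 0.947 between groups. Summed FPKM ran from 310109 to 421984.3 and was highest in sgHcar1 cells in lactate. The divisor of each library, inferred from low values, ran from 0.746 to 1 of the largest and was lowest in that group. Because the deposited values share a median-ratio scale, this divisor is a scaling factor and need not rank the libraries by depth in reads. Hcar1 was listed at 0 in 11 of 12 libraries and reached 0.0196 FPKM in the other, a library of sgHcar1 cells in PBS, so its level does not check the guide labels. The epithelial markers Epcam and Cdx2 were listed at 0 in all 12 libraries. Of 13 epithelial symbols 11 had an entry and 4 reached 1 FPKM on average in a group, and these did not move together. Krt18 was at 46.2 and 113 FPKM in sgHcar1 cells in PBS and lactate, against 0.0274 and 0 FPKM in sgControl cells. Cdh1 and Krt19 were at 1.72 and 1.31 FPKM in sgControl cells in PBS and at 4.53 and 0.300 FPKM in lactate, and were listed at 0 in all sgHcar1 libraries. The summed epithelial level, nearly all Krt18 in sgHcar1 cells, was 4.17 to 4.75 FPKM in PBS and 6.33 to 6.8 in lactate with sgControl. With sgHcar1 it was 46.2 to 49.4 FPKM in PBS and 112 to 116 in lactate. Fibroblast markers (9 of 9 with an entry, Lum and Thy1 at 0) were mixed as well. Their sum was 274 to 284 and 238 to 252 FPKM in sgControl cells in PBS and lactate. In sgHcar1 cells it was 185 to 195 and 81.5 to 86.4 FPKM. But Col1a1 and Col1a2 were higher with sgHcar1 in PBS, at 23.1 and 114.6 FPKM against 1.01 and 45.5 FPKM. Col3a1, Dcn, Pdgfra, Pdgfrb and Fbln2 were lower with sgHcar1 in PBS, with Col3a1 at 1.555 FPKM against 67.16 FPKM. Of 10 leukocyte symbols 9 had an entry. Cd3e, Itgam and Adgre1 were listed at 0 throughout and Ptprc reached at most 0.0063 FPKM, while Cd14 was at 11.98, 13.9, 7.67 and 4.29 FPKM and Cd68 at 4.36, 6.54, 1.78 and 4.91 FPKM in sgControl PBS, sgControl lactate, sgHcar1 PBS and sgHcar1 lactate. The summed leukocyte level ran from 8.08 to 21.1 FPKM over all libraries. The part of these markers in the results was not tested. As 76.7% of all genes tested differed between the guides in PBS, an effect of the guide and any other difference between the 2 cell populations cannot be told apart.

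Most of the prostaglandin genes changed with lactate, as most genes did. In sgControl cells 5 of the 6 genes tested changed, where 65.7% of all genes tested did, with 3 upward (33.9% of all genes) and 2 downward (31.9%). In sgHcar1 cells the count was again 5 (72.2% of all genes), with 3 upward (36.8%) and 2 downward (35.4%). The lactate effects differed between the guides for 5 of 6 genes (59.1% of all genes), with 3 differences upward (30.4%) and 2 downward (28.7%). Between the guides in PBS all 6 genes tested differed (76.7%), 4 higher in sgHcar1 cells (38.2%) and 2 lower (38.4%). In lactate 5 of 6 differed (82.2%), 3 higher (41.3%) and 2 lower (40.9%). The libraries of the compared groups did not overlap for 5 of 6 genes with lactate in sgControl cells (70.2% of all genes), 5 in sgHcar1 cells (73.6%), 6 between the guides in PBS (79.2%) and 5 in lactate (82.3%). These counts are close to the shares over all genes and say nothing particular of the pathway. The median log2 change of the 6 genes was 0.39 with lactate in sgControl cells and 0.09 in sgHcar1 cells, where the medians over all genes were 0.0010 and 0. The 5 comparisons share groups, so they are not independent of each other.

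How the genes as a whole split into higher and lower depended on scaling. As deposited, higher and lower calls were nearly equal in number in sgHcar1 cells, with 5050 rises and 4867 falls. With each library rescaled to a sum of 1000000, these became 3991 and 5985. The difference of the lactate effects went from 4170 higher and 3947 lower to 2475 and 5754. Between the guides in PBS, 5249 higher and 5280 lower calls became 4032 and 6426. Between the guides in lactate, 5678 and 5614 became 3580 and 7710. Rescaling shifted the median of all genes by -0.18 with lactate in sgHcar1 cells, by -0.23 for the difference of the lactate effects, and by -0.18 and -0.40 between the guides in PBS and in lactate. Small changes below are therefore relative to the deposited scale.

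**Figure D1:**
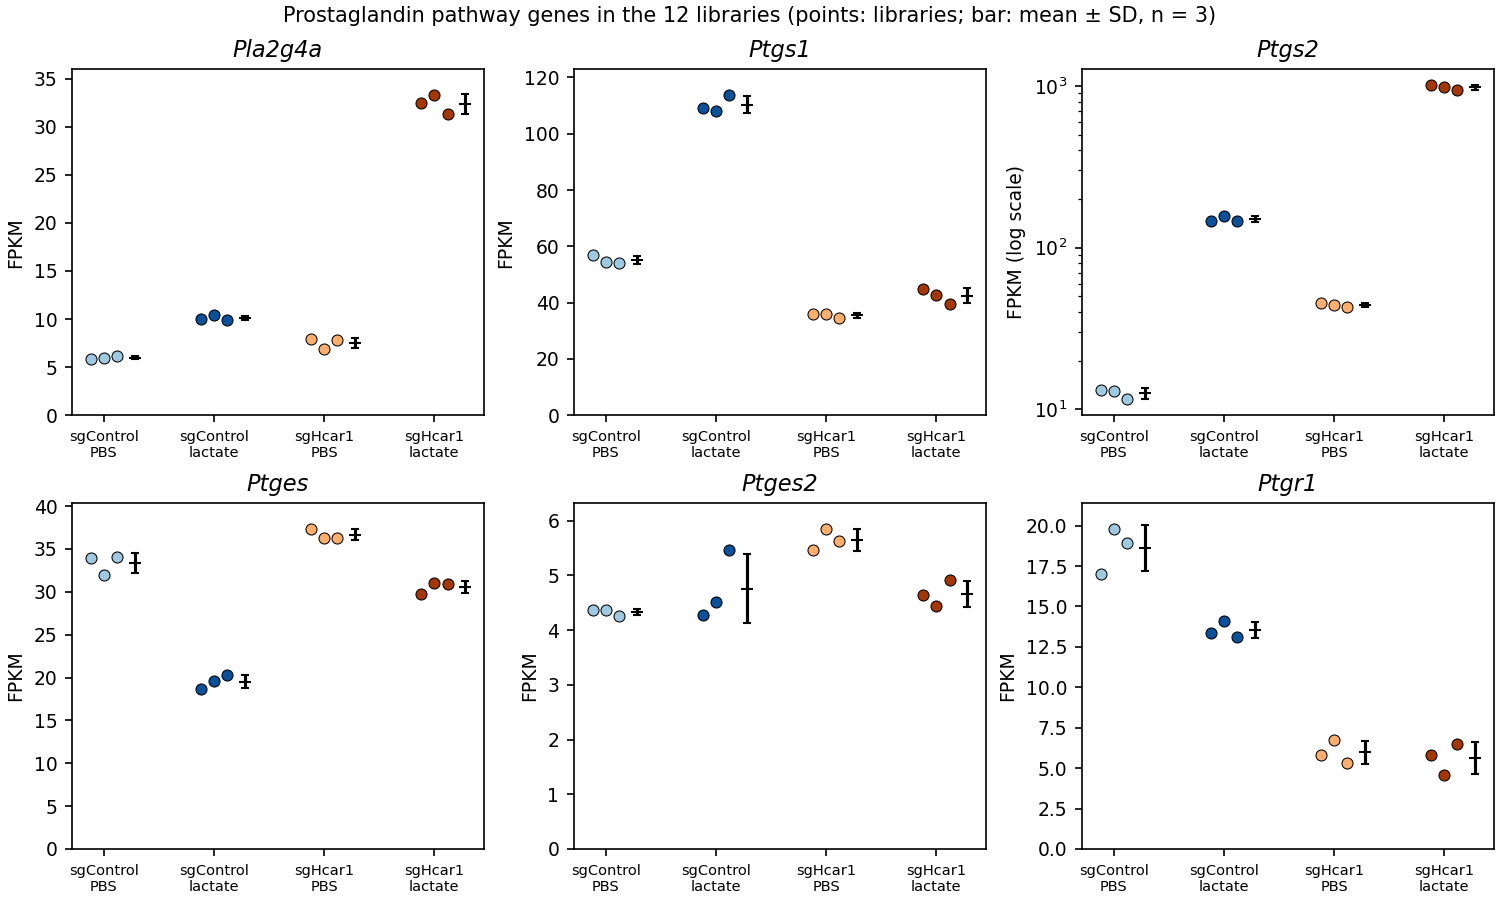
FPKM of the 6 prostaglandin genes above the filter in each of the 12 libraries (points, 3 per group), with the mean ± SD beside them. The Ptgs2 axis is logarithmic and the others start at 0. Ptgs2 spans 11.5 to 1007 FPKM, while Ptges2 stays between 4.26 and 5.86 FPKM.

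Release of arachidonate was represented by Pla2g4a, which encodes the calcium-dependent cytosolic phospholipase A2. Its level rose with lactate in both cell populations, and more in sgHcar1 cells. In sgControl cells the libraries were at 5.83, 5.997 and 6.15 FPKM in PBS and at 10.03, 10.4 and 9.93 FPKM in lactate. In sgHcar1 cells they were at 7.89, 6.92 and 7.79 FPKM in PBS and at 32.5, 33.3 and 31.3 FPKM in lactate. No 2 of the 4 groups overlapped, and the libraries of sgHcar1 cells in lactate stood far above all others. The log2 change with lactate was 0.67 ± 0.05 in sgControl cells (limma, adjusted p = 2.37e-07) and 1.97 ± 0.05 in sgHcar1 cells (adjusted p = 2.78e-11). These effects differed by 1.30 ± 0.07 (adjusted p = 7.37e-08). In FPKM the rises were 1.69-fold and 4.30-fold. Between the guides Pla2g4a was 1.26-fold higher in sgHcar1 cells in PBS (log2 difference 0.29 ± 0.05, limma adjusted p = 0.00016; 0.14 after rescaling to equal sums) and 3.20-fold higher in lactate (1.59 ± 0.05, adjusted p = 5.87e-11).

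The cyclooxygenase genes are Ptgs1, usually described as the constitutive form, and Ptgs2, the inducible form. Ptgs2 and Ptgs1 lie on chromosomes 1 and 2 (GENCODE M21, GRCm38: Ptgs2 at chr1:150100031-150108227 on the plus strand, Ptgs1 at chr2:36230426-36252272 on the plus strand). Their promoters are shown with that of Ptges, the terminal synthase gene described below (chr2:30889471-30929863, minus strand), because these 3 genes of neighbouring steps moved differently. Each sequence is from RefSeq (GRCm38.p6), 5′ to 3′ on the strand of the gene, and runs from 250 bases before the start annotated there to 50 after it. For Ptges this start lies inside the span given above, away from the start in GENCODE. Capitals mark matches, on either strand, to 5 motifs. The half-site of the cAMP response element is spelled CGTCA here. An E-box, the site of basic helix-loop-helix factors, is CACGTG. The palindrome bound by C/EBP factors is TTGCGCAA. The TATA box near many start sites is TATAAA. The GC box bound by factors of the Sp family is GGGCGG.
Ptgs2 promoter, chr1:150099781-150100080, plus strand: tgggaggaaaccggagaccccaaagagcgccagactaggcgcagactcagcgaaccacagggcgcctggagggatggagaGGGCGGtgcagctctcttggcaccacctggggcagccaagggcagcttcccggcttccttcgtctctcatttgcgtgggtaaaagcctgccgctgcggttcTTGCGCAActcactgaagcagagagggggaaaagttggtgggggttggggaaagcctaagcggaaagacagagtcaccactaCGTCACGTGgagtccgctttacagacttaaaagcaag
Ptgs1 promoter, chr2:36230176-36230475, plus strand: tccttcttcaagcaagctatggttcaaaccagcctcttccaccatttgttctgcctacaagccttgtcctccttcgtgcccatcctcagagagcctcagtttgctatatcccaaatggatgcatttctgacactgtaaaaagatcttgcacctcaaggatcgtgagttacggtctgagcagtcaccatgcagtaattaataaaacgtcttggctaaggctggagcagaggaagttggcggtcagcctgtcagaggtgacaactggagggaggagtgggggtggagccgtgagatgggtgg
Ptges promoter, chr2:30903248-30903547, minus strand: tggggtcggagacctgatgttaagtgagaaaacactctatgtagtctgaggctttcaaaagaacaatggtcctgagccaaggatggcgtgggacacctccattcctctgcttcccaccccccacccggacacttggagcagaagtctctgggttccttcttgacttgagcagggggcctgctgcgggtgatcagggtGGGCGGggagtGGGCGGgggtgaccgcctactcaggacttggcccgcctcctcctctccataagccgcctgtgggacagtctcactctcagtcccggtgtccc
The Ptgs2 window held CGTCA at position 14 after the start, overlapping CACGTG at position 17, TTGCGCAA 69 bases before the start and GGGCGG 170 bases before it. Of 32851 mouse promoters of the same 300 bases, 20.8% held CGTCA on either strand, 7.15% CACGTG, 0.183% TTGCGCAA, 13.6% TATAAA and 35.7% GGGCGG. The Ptges window held GGGCGG 53 and 42 bases before the start, and the Ptgs1 window held none of the 5 motifs. A match of letters is a description of the sequence and not a measured binding site.

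Ptgs2 rose with lactate more than any other tested gene of the pathway lists used here. In sgControl cells its libraries were at 13.1, 13.1 and 11.5 FPKM in PBS and at 146, 158 and 146 FPKM in lactate. In sgHcar1 cells they were at 45.7, 44.0 and 43.1 FPKM in PBS and at 1007, 989.8 and 944 FPKM in lactate. The 4 groups were fully separated, and even the lowest library of sgHcar1 cells in PBS was above the highest of sgControl cells in PBS. The rise was 11.95-fold in sgControl cells (log2 change 3.48 ± 0.05, limma adjusted p = 2.79e-12), where Ptgs2 ranked 12 among all genes ordered by log2 change. It was 22.1-fold in sgHcar1 cells (4.44 ± 0.05, adjusted p = 5.08e-13), where it ranked 5. Ptgs2 was 3.53-fold higher in sgHcar1 than in sgControl cells in PBS (1.74 ± 0.05, limma adjusted p = 7.64e-11) and 6.54-fold higher in lactate (2.70 ± 0.05, adjusted p = 1.67e-12). The lactate effects on Ptgs2 differed by 0.96 ± 0.07 (limma adjusted p = 1.12e-06), and by 0.41 after quantile normalization (adjusted p = 0.00305).

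Ptgs1 showed the opposite order of the guides. Its libraries were at 56.9, 54.4 and 54.1 FPKM in sgControl cells in PBS and at 109, 108 and 114 FPKM in lactate. In sgHcar1 cells they were at 36.0, 35.9 and 34.5 FPKM in PBS and at 44.8, 42.9 and 39.6 FPKM in lactate. Every sgHcar1 library was below every sgControl library, and the groups did not overlap. With lactate Ptgs1 rose 2.001-fold in sgControl cells (0.99 ± 0.04, limma adjusted p = 5.7e-09) and 1.20-fold in sgHcar1 cells (0.25 ± 0.04, adjusted p = 0.000288). The second rise was 0.07 and did not pass after rescaling to equal sums (adjusted p = 0.199). The lactate effect on Ptgs1 was smaller in sgHcar1 cells by a log2 difference of -0.74 ± 0.06 (limma adjusted p = 2.28e-06). Between the guides Ptgs1 was lower in sgHcar1 cells by a log2 difference of -0.62 ± 0.04 in PBS (limma adjusted p = 1.26e-07) and of -1.36 ± 0.04 in lactate (adjusted p = 1.2e-10).

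Together these changes altered which cyclooxygenase made up most of the transcript pool. Ptgs2 was 18.73%, 19.36% and 17.53% of the summed FPKM of both genes in the libraries of sgControl cells in PBS. It was 57.3%, 59.32% and 56.18% in sgControl cells in lactate and 55.93%, 55.05% and 55.55% in sgHcar1 cells in PBS. In sgHcar1 cells in lactate it was 95.74%, 95.85% and 95.97%. Ptgs1 was thus the more abundant form only in sgControl cells in PBS among these 4 groups, and sgHcar1 cells without lactate had a Ptgs2 share close to that of sgControl cells with it. The means were 18.5% ± 0.929, 57.6% ± 1.59, 55.5% ± 0.439 and 95.85% ± 0.117 (SD, n = 3). Lactate added 39.1 percentage points in sgControl cells and 40.3 in sgHcar1 cells, and in each case the groups did not overlap (exact two-sided permutation test, p = 0.1, the smallest that 3 against 3 libraries allow). The guides differed by 37.0 points in PBS and 38.2 points in lactate, with the same exact p of 0.1. A share has an upper limit, and sgHcar1 cells in lactate were close to it, so similar gains in points do not mean similar changes in the ratio. The mean ratio of Ptgs2 to Ptgs1 was 0.228 and 1.36 in sgControl cells in PBS and lactate, and 1.248 and 23.1 in sgHcar1 cells. This ratio rose by a larger factor with lactate in sgHcar1 cells, and the guides differed by a larger factor in lactate. The summed cyclooxygenase level was 67.7 ± 2.17, 260.3 ± 5.06, 79.7 ± 2.14 and 1023 ± 35.2 FPKM (SD, n = 3) in the same order. The similar shares of sgControl cells in lactate and sgHcar1 cells in PBS therefore came with very different totals.

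**Figure D2:**
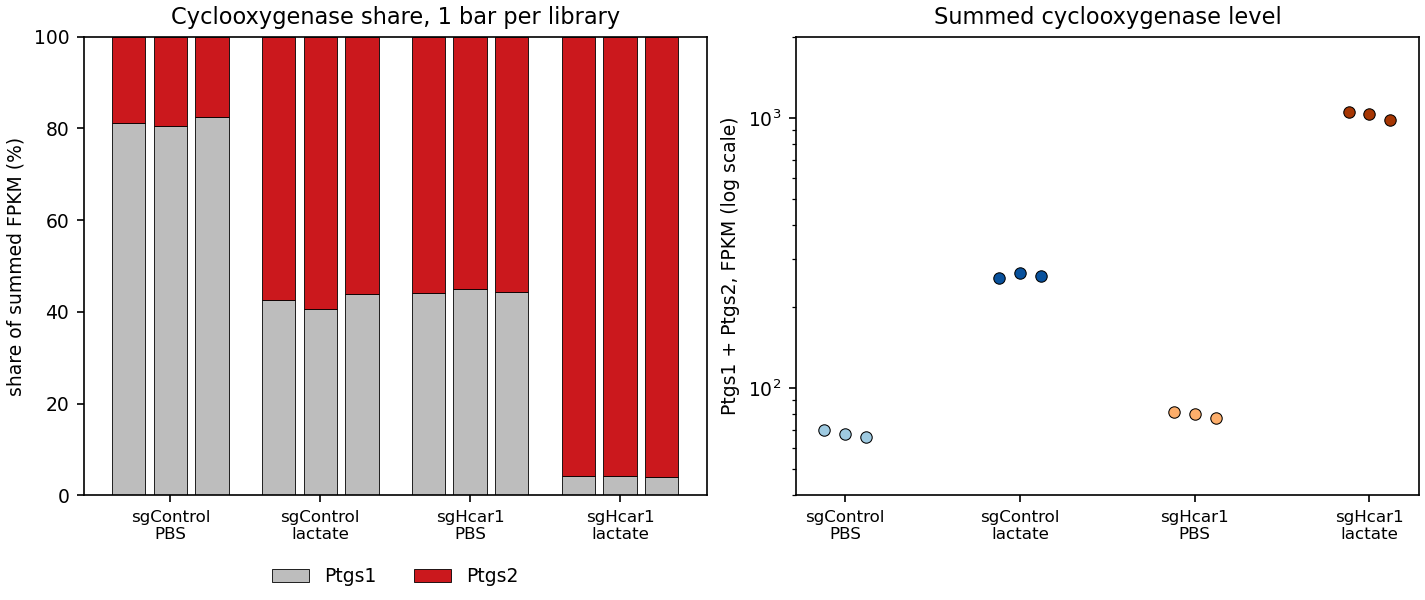
Left, the share of Ptgs1 (grey) and Ptgs2 (red) in their summed FPKM, in percent, with 1 bar per library. Right, the summed FPKM on a logarithmic axis, 1 point per library. The Ptgs2 share is lowest in sgControl cells in PBS, at 17.53% to 19.36%, and highest with the other guide in lactate, at 95.74% to 95.97%, where the sum is highest too.

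Neither gene of a prostaglandin E synthase with an entry rose with lactate. Ptges encodes the inducible microsomal prostaglandin E synthase, which is known to work with the inducible cyclooxygenase, and its level fell with lactate. Its libraries were at 34.0, 32.0 and 34.0 FPKM in sgControl cells in PBS and at 18.7, 19.6 and 20.3 FPKM in lactate. In sgHcar1 cells they were at 37.4, 36.3 and 36.3 FPKM in PBS and at 29.7, 31.0 and 30.9 FPKM in lactate. The lactate libraries were below the PBS libraries of the same guide in every case, and sgControl cells in lactate were lowest. The log2 change was -0.74 ± 0.04 in sgControl cells (limma adjusted p = 1.34e-08) and -0.26 ± 0.04 in sgHcar1 cells (adjusted p = 6.24e-05; -0.44 after rescaling). These effects differed by 0.49 ± 0.05 (limma adjusted p = 1.35e-05; 0.27 after rescaling). In lactate Ptges was 1.56-fold higher in sgHcar1 cells (0.62 ± 0.04, limma adjusted p = 2.18e-08; 0.23 after rescaling). In PBS it was 1.10-fold higher (0.13 ± 0.04, adjusted p = 0.00575), a difference that turned to -0.04 and did not pass after rescaling (adjusted p = 0.269). Set against the summed cyclooxygenase level, Ptges was 49.3% ± 2.28 and 46.0% ± 0.739 in the PBS groups of sgControl and sgHcar1 cells. It was 7.50% ± 0.276 and 2.99% ± 0.159 in the lactate groups (SD, n = 3).

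Ptges2, which encodes a second membrane-associated prostaglandin E synthase, changed little. Its libraries were at 4.36, 4.37 and 4.26 FPKM in sgControl cells in PBS and at 4.27, 4.52 and 5.47 FPKM in lactate. In sgHcar1 cells they were at 5.46, 5.86 and 5.64 FPKM in PBS and at 4.65, 4.44 and 4.91 FPKM in lactate. The sgControl groups overlapped, with replicate 3 in lactate above the other libraries of both, and the groups in lactate overlapped between the guides. With lactate the log2 change was 0.10 ± 0.07 in sgControl cells, which did not pass (limma adjusted p = 0.207), and -0.23 ± 0.07 in sgHcar1 cells (adjusted p = 0.0102; -0.43 after rescaling). These effects differed by -0.34 ± 0.10 (limma adjusted p = 0.0119; -0.59 after rescaling). Ptges2 was higher in sgHcar1 cells in PBS by 0.32 ± 0.07 (limma adjusted p = 0.00136), or 0.19 after rescaling. In lactate the difference was -0.02 ± 0.07 (adjusted p = 0.821). It turned to 0.11 after quantile normalization, to 0.07 without sgControl lactate replicate 3 and to 0.01 without sgHcar1 lactate replicate 2, and was -0.40 after rescaling (adjusted p = 0.000361).

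On the side of breakdown, Ptgr1 encodes prostaglandin reductase 1, which acts on the oxidised prostaglandins and on leukotriene B4. It was lower in sgHcar1 cells than in sgControl cells under both treatments. Its libraries were at 17.0, 19.8 and 18.9 FPKM in sgControl cells in PBS and at 13.4, 14.1 and 13.1 FPKM in lactate. In sgHcar1 cells they were at 5.83, 6.75 and 5.34 FPKM in PBS and at 5.81, 4.58 and 6.51 FPKM in lactate. The sgControl groups were apart from each other, while the sgHcar1 groups overlapped and lay below every sgControl library. The log2 difference between the guides was -1.49 ± 0.11 in PBS (limma adjusted p = 1.51e-07) and -1.14 ± 0.11 in lactate (adjusted p = 1.28e-06). With lactate Ptgr1 fell in sgControl cells (-0.43 ± 0.11, limma adjusted p = 0.00395). In sgHcar1 cells the change was -0.08 ± 0.11 (adjusted p = 0.541). The difference between these effects was 0.35 ± 0.15 and did not pass (limma adjusted p = 0.0634). It passed without sgControl PBS replicate 1 (0.41, adjusted p = 0.0479), without sgHcar1 PBS replicate 2 (0.43, adjusted p = 0.0311) and without sgHcar1 lactate replicate 2 (0.47, adjusted p = 0.00695), and after quantile normalization (0.43, adjusted p = 0.0265). After rescaling to equal sums it was 0.14 (adjusted p = 0.469).

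Hpgd encodes the dehydrogenase that starts the inactivation of prostaglandins and is known to be low in many colon tumours. It was listed at 0 FPKM in all 12 libraries, so no change could be tested, and the depth behind a value of 0 is unknown because the table holds no counts.

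**Figure D3:**
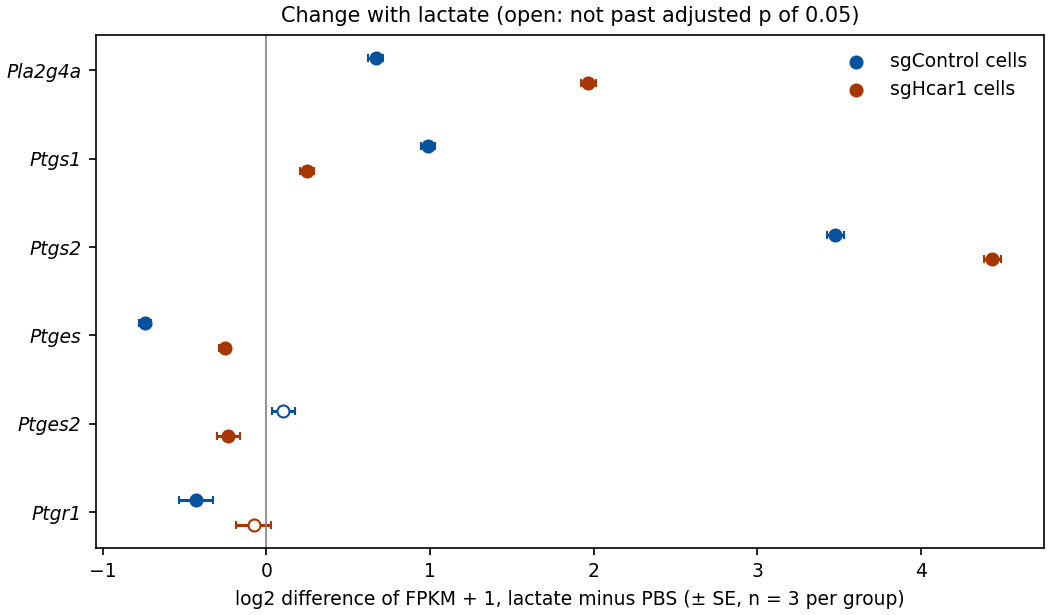
Log2 difference of FPKM + 1 between lactate and PBS for the 6 prostaglandin genes of the fit, ± SE, in sgControl cells (blue) and sgHcar1 cells (red), 3 libraries per group. Open points did not pass an adjusted p of 0.05. Ptgs2 lies at 3.48 and 4.44, Ptges at -0.74 and -0.26.

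The order of the genes by level within a group changed accordingly. In sgControl cells in PBS it was Ptgs1, Ptges, Ptgr1, Ptgs2, Pla2g4a and Ptges2 from high to low, with no overlap between neighbours. In sgControl cells in lactate Ptgs2 moved to the top, above Ptgs1, Ptges, Ptgr1, Pla2g4a and Ptges2, again with no overlap. In sgHcar1 cells in PBS the order was Ptgs2, Ptges, Ptgs1, Pla2g4a, Ptgr1 and Ptges2, and in lactate it was Ptgs2, Ptgs1, Pla2g4a, Ptges, Ptgr1 and Ptges2. The neighbours Ptgr1 and Ptges2 overlapped in both sgHcar1 groups. In lactate Ptgs2 was 23.1 ± 0.681 times as high as Ptgs1 in sgHcar1 cells (SD, n = 3) and 1.36 ± 0.0895 times as high in sgControl cells.

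Pla2g4a is also a neighbour of Ptgs2 on chromosome 1. Its start lies 139 kb upstream of that of Ptgs2 and on the other strand (chr1:149829618-149961290, minus strand). Within 500 kb of the Ptgs2 start, 6 genes, these included, passed the filter. Ptgs2os, a noncoding transcript that starts 68 bases upstream of Ptgs2 and runs away from it, was at 2.27 ± 0.233, 2.90 ± 0.0952, 2.22 ± 0.358 and 3.55 ± 0.247 FPKM in sgControl PBS, sgControl lactate, sgHcar1 PBS and sgHcar1 lactate (SD, n = 3). Its log2 change with lactate was 0.26 ± 0.08 in sgControl cells (limma adjusted p = 0.0194) and 0.50 ± 0.08 in sgHcar1 cells (adjusted p = 0.000232). Ptgs2os2, the long noncoding RNA also called lincRNA-Cox2, starts 64.9 kb downstream of the Ptgs2 start and was at 9.62 ± 0.601, 14.1 ± 0.450, 16.2 ± 0.583 and 19.5 ± 1.28 FPKM in the same order. It rose with lactate by 0.51 ± 0.05 in sgControl cells (limma adjusted p = 7.97e-06) and by 0.25 ± 0.05 in sgHcar1 cells (adjusted p = 0.00129), and these effects differed by -0.26 ± 0.08 (adjusted p = 0.014). So the rise of Ptgs2os2 was larger in sgControl cells, whereas those of Ptgs2 and Pla2g4a were larger in sgHcar1 cells. Tpr, a nuclear pore gene 293 kb from Ptgs2, rose by 0.22 ± 0.03 with either guide, and the predicted microRNA gene Gm44329 did not pass (limma adjusted p = 0.973 and 0.734). Whether fragments were counted by strand is not given in the sources used here. None of these genes overlaps Ptgs2 in the annotation used for positions. The identifiers deposited for the prostaglandin genes come from another annotation, which was not available here, so genes were matched by symbol.

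**Figure D4:**
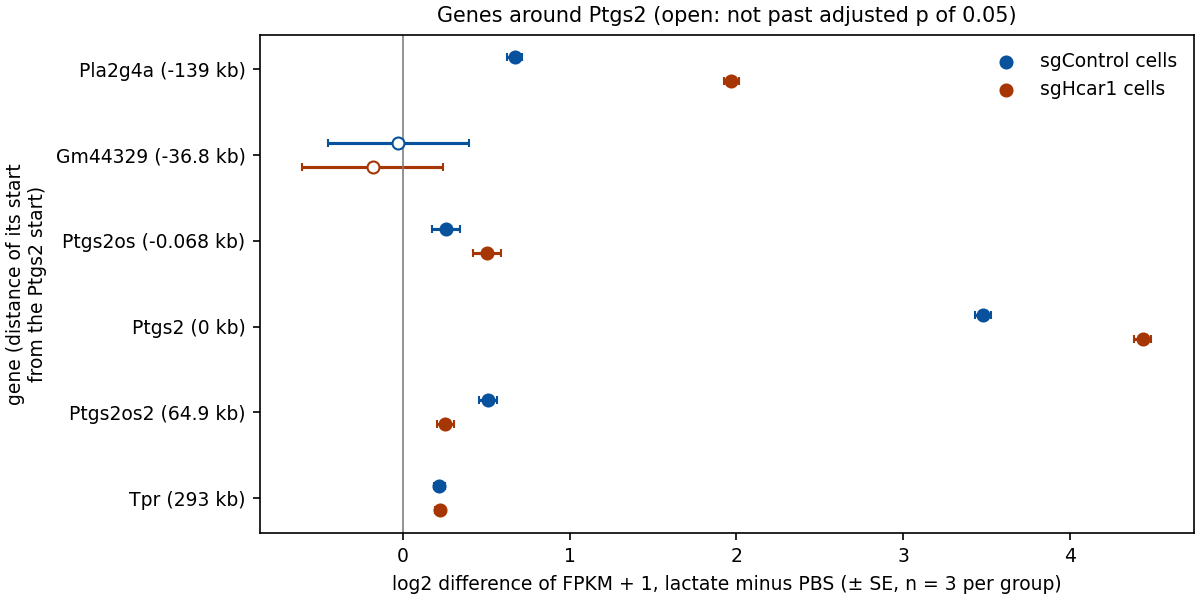
Log2 difference of FPKM + 1 between lactate and PBS (± SE, 3 libraries per group) for the genes within 500 kb of the Ptgs2 start that passed the filter, ordered by the distance of their start from that of Ptgs2, which is in brackets. Ptgs2 at 3.48 and 4.44 and Pla2g4a at 0.67 and 1.97 changed most, and the other 4 genes lie between -0.18 and 0.51.

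The rest of the arachidonate pathway was followed through 5 lists with 79 further symbols, of which 75 had an entry and 27 passed the filter. With lactate 13 rose, 10 fell and 4 did not pass in sgControl cells, where 33.9% of all genes rose and 31.9% fell. In sgHcar1 cells 10 rose, 9 fell and 8 did not pass, where 36.8% of all genes rose and 35.4% fell. The lactate effects differed upward for 7 and downward for 8 (30.4% and 28.7% of all genes). Between the guides 11 were higher and 13 lower in sgHcar1 cells in PBS (38.2% and 38.4%), and 9 were higher and 14 lower in lactate (41.3% and 40.9%). The counts of single lists below are small and are to be read against these same percentages. The median log2 changes with lactate were 0.15 in sgControl cells and 0.04 in sgHcar1 cells.

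The list of phospholipases and arachidonate release had 26 further genes, not all of which release it (Anxa1, below, encodes an inhibitor). Of these 26 genes 11 were tested. With lactate 4 rose and 5 fell in sgControl cells (33.9% and 31.9% of all genes) and 5 rose and 5 fell in sgHcar1 cells (36.8% and 35.4%). Pla2g2e, which encodes a secreted phospholipase A2, resembled Pla2g4a, at 0.666 ± 0.255, 1.68 ± 0.526, 1.78 ± 0.520 and 9.83 ± 0.200 FPKM in sgControl PBS, sgControl lactate, sgHcar1 PBS and sgHcar1 lactate (SD, n = 3). Its log2 change with lactate was 0.68 ± 0.17 in sgControl cells and 1.98 ± 0.17 in sgHcar1 cells, and these differed by 1.30 ± 0.24 (limma adjusted p = 0.000758). Anxa1, the gene of annexin A1, known as an inhibitor of phospholipase A2, was the most abundant gene named here in sgControl cells, at 416.9 ± 11.6 FPKM in PBS and 237.9 ± 8.35 FPKM in lactate. It was at 144.6 ± 3.74 and 94.2 ± 1.55 FPKM in sgHcar1 cells. It fell with lactate by 0.81 on the log2 scale in sgControl cells (limma adjusted p = 3.58e-09) and by 0.61 in sgHcar1 cells (adjusted p = 1.92e-08). The difference between these effects was 0.19 and turned to -0.04 after rescaling and to -0.02 after quantile normalization. Pla2g15, a lysosomal phospholipase gene, also fell with either guide (-0.33 ± 0.09 and -0.79 ± 0.09). Pla2g7, which encodes the hydrolase of platelet-activating factor, was lower in sgHcar1 cells by a log2 difference of -1.55 ± 0.06 in PBS and -1.35 ± 0.06 in lactate.

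Among further prostanoid synthases 4 genes were tested, and with lactate 1 rose and 3 fell in sgControl cells (33.9% and 31.9% of all genes), while 2 rose and 1 fell in sgHcar1 cells (36.8% and 35.4%). Ptgds, the gene of the lipocalin-type prostaglandin D synthase, was at 0.184 ± 0.144 and 0.557 ± 0.216 FPKM in sgControl cells in PBS and lactate, and at 5.74 ± 0.201 FPKM in sgHcar1 cells in PBS (SD, n = 3). In sgHcar1 cells in lactate its libraries were at 13.1, 11.9 and 11.04 FPKM, above all others. It was higher in sgHcar1 cells by a log2 difference of 2.51 ± 0.11 in PBS (limma adjusted p = 2.63e-09) and 3.07 ± 0.11 in lactate (adjusted p = 3.69e-10). Akr1c18, an aldo-keto reductase gene, fell with lactate in sgControl cells (-1.40 ± 0.15, limma adjusted p = 1.09e-05). In sgHcar1 cells its level was low under both treatments, at 0.286 ± 0.253 and 0.279 ± 0.118 FPKM. The related gene Akr1b8 fell with lactate in sgControl cells (-0.69 ± 0.06) and rose in sgHcar1 cells (0.35 ± 0.06), and these effects differed by 1.04 ± 0.08 (limma adjusted p = 1.59e-06). Gstm2, a glutathione transferase gene, fell with either guide (-0.31 ± 0.07 and -0.36 ± 0.07). Hpgds, Ptgis and Tbxas1, which encode other terminal synthases, stayed below 0.09 FPKM in every library.

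Of the further genes for breakdown and transport 5 were tested, of which 3 rose and 1 fell with lactate in sgControl cells (33.9% and 31.9% of all genes) and 1 rose and 2 fell in sgHcar1 cells (36.8% and 35.4%). Abcc4 encodes a membrane pump that is known to export prostaglandin E2. Its libraries were at 2.97, 2.98 and 2.44 FPKM in sgControl cells in PBS and at 4.201, 4.18 and 3.95 FPKM in lactate, and at 4.96, 5.01 and 5.33 FPKM in sgHcar1 cells in PBS and 24.7, 24.9 and 23.1 FPKM in lactate. The groups did not overlap, and, as for Pla2g4a, the sgHcar1 libraries in lactate were far above the rest. Its log2 change with lactate was 0.43 ± 0.06 in sgControl cells (limma adjusted p = 6.65e-05) and 2.05 ± 0.06 in sgHcar1 cells (adjusted p = 1.2e-10), and these differed by 1.62 ± 0.08 (adjusted p = 9.46e-08). Cbr3, a carbonyl reductase gene, was at 4.27 ± 0.285 and 4.16 ± 0.357 FPKM in sgControl cells in PBS and lactate, and Slco3a1, an organic anion transporter gene, at 3.30 ± 0.110 and 3.86 ± 0.0596 FPKM (SD, n = 3). Both were listed at 0 in all 6 sgHcar1 libraries. Ptgr2, another prostaglandin reductase gene, fell with lactate in sgControl cells (-0.22 ± 0.06) and in sgHcar1 cells (-0.42 ± 0.06).

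Of 12 receptor genes 3 passed the filter, and all 3 were lower in sgHcar1 cells under both treatments, where 38.4% of all genes were lower in PBS and 40.9% in lactate. Ptger1, the gene of the prostaglandin E receptor EP1, was at 8.01 ± 0.791 and 9.82 ± 0.0641 FPKM in sgControl cells in PBS and lactate, and at 2.32 ± 0.0371 and 2.06 ± 0.113 FPKM in sgHcar1 cells (SD, n = 3). The log2 difference between the guides was -1.44 ± 0.06 in PBS (limma adjusted p = 1.47e-09) and -1.82 ± 0.06 in lactate (adjusted p = 1.5e-10). The genes of the other prostaglandin E receptors, Ptger2, Ptger3 and Ptger4, reached at most 0.0652, 0.0109 and 0.151 FPKM in a library. Ppard, the gene of a nuclear receptor that binds fatty acid derivatives, rose with lactate by 0.88 ± 0.06 and 1.26 ± 0.06 in sgControl and sgHcar1 cells. Ptgfrn, which encodes a membrane protein named for its effect on the prostaglandin F receptor, fell with either guide (-0.47 ± 0.04 and -0.97 ± 0.04).

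In the lipoxygenase and epoxide branches 4 of 22 genes were tested, of which 3 rose with lactate in sgControl cells (33.9% of all genes) and 1 in sgHcar1 cells (36.8%). Ephx1, the gene of the microsomal epoxide hydrolase, was 2.85 ± 0.04 higher on the log2 scale in sgHcar1 cells in PBS (limma adjusted p = 1.96e-13) and rose by 0.50 ± 0.04 with lactate under either guide. Lta4h, which encodes leukotriene A4 hydrolase, rose by 0.15 ± 0.04 in sgControl cells (limma adjusted p = 0.00889). Cyp4f13, a cytochrome P450 gene, rose by 0.42 ± 0.07 in sgControl cells (adjusted p = 0.000293), with 0.05 ± 0.07 in sgHcar1 cells (adjusted p = 0.537). The epoxygenase gene Cyp2j6 was lower in sgHcar1 cells by a log2 difference of -1.38 ± 0.10 in PBS and -1.29 ± 0.10 in lactate. The lipoxygenase gene Alox5 reached at most 0.207 FPKM.

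**Figure D5:**
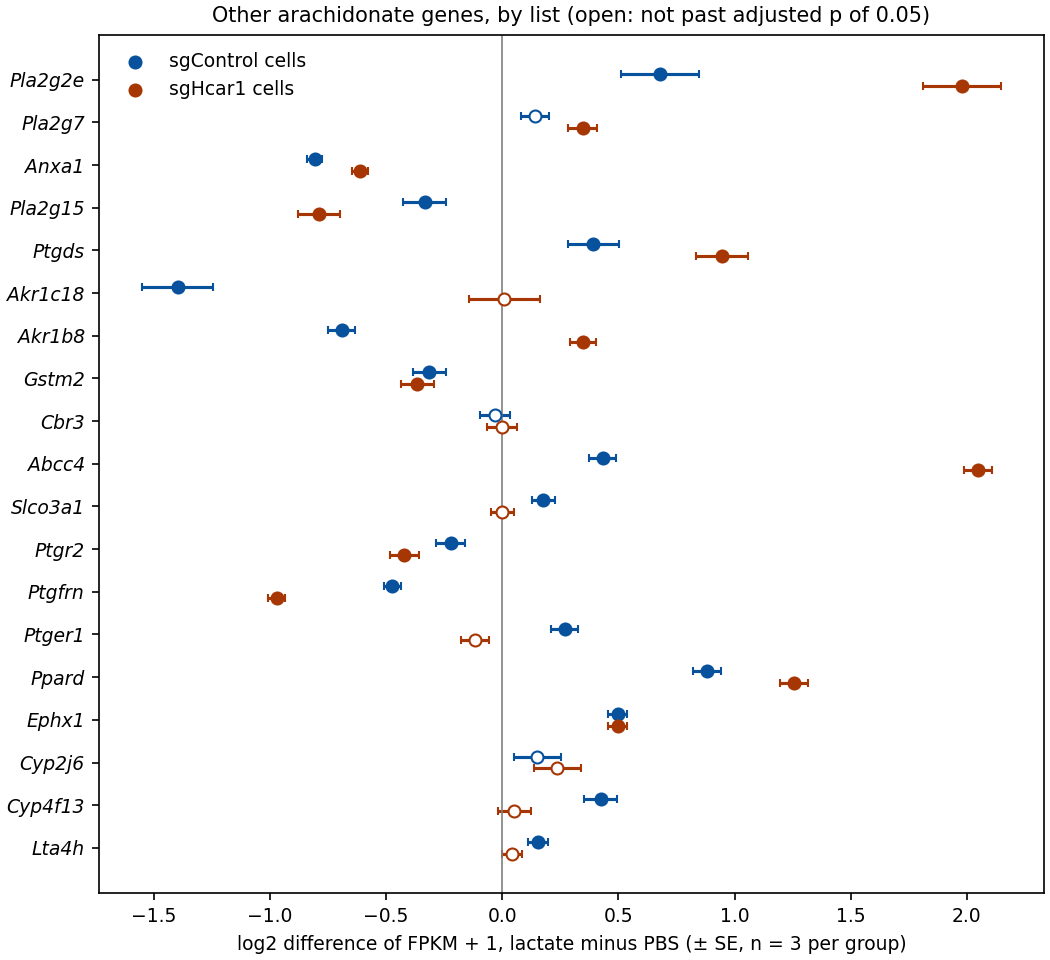
Log2 difference of FPKM + 1 between lactate and PBS (± SE, 3 libraries per group) for the 19 further arachidonate genes named, in the order of their lists, in sgControl cells (blue) and sgHcar1 cells (red). Open points did not pass an adjusted p of 0.05. Abcc4 and Pla2g2e lie at 2.05 and 1.98 in sgHcar1 cells and at 0.43 and 0.68 in sgControl cells.

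Genes with the most similar pattern were sought among 7359 genes by Pearson's r of log2(FPKM + 1) over the 12 libraries. These libraries form 4 tight groups, so r describes the 4 group levels more than the variation within groups. For Ptgs2 the closest were Pdia4 (r = 0.9994), Zfand3 (0.9979) and Pex14 (0.9978), and Pdia4, a protein disulfide isomerase gene of the endoplasmic reticulum, was at 44.7, 144.1, 79.0 and 335.4 FPKM on average in sgControl PBS, sgControl lactate, sgHcar1 PBS and sgHcar1 lactate. For Pla2g4a they were Erlin1 (0.9983), Copa (0.9978) and Tnks2 (0.9978). For Ptgs1 they were Cers6 (0.9952), Akap1 (0.9944) and Trim16 (0.9943). For Ptges they were Psma2 (0.9968), Snrpd1 (0.9901) and Hdgf (0.9879), and for Ptgr1 Rhoa (0.9889), Gcdh (0.9886) and Pop4 (0.9881). Ptges2 had the least similar neighbours, of which Fdx1 was the closest (0.9177).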

How the data were processed

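RNA from 12 MC38 libraries in 4 groups of 3 was analysed from 1 table. The authors deposited FPKM per gene and library; per the submitters' processing notes the tools were featureCounts 1.5.0-p3 and HISAT2 2.0.5 and the build was GRCm38, with no role or order given, and per the labels 1 µg of total RNA entered a TruSeq preparation. Columns were matched to groups by their letters, those of sgHcar1 by elimination. The median ratio to a common reference was 1.0095 in every library, over 14073 genes, so the deposited values already share a median-ratio scale. No counts were given, so depth in reads is unknown, no count test was run and no counting interval is given.

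Genes that reached 1 FPKM in 3 or more libraries were tested as log2(FPKM + 1) with limma 3.58.1 (R 4.3.3), with 1 mean per group, an intensity trend and Benjamini-Hochberg adjustment over all genes in each of 5 contrasts; tests were two-sided, and the model was tested on simulated data. The labels name no batch. The prostaglandin genes and gene lists were chosen with earlier results of these data known. Named from each list were up to 4 further genes by the size of their largest change among those that passed. The 3 genes most alike in pattern were sought for each prostaglandin gene, and some are not reported here. Alternatives covered the pseudocount, the filter, scaling, the trend, the samples in the fit, a replicate block and each library left out. Gene positions are from GENCODE M21 and promoters from RefSeq, where all 8 genes matched by symbol. Summaries used Python 3.11.15, pandas 2.3.3, scipy 1.17.1 and matplotlib 3.10.9.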

Additional observations from a re-analysis of the deposited data

Results flagged for a closer look

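Among the prostaglandin genes and the further genes named above, those below had a lactate effect that differed between sgHcar1 and sgControl cells (test of the difference itself, limma, adjusted p under 0.05). Each value is the log2 change with lactate in sgHcar1 cells minus that in sgControl cells.

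Among the prostaglandin genes the difference was 1.30 for Pla2g4a, 0.96 for Ptgs2, 0.49 for Ptges, -0.34 for Ptges2 and -0.74 for Ptgs1. For Pla2g4a and Ptgs2 it marks a larger rise in sgHcar1 cells, for Ptgs1 a smaller rise and for Ptges a smaller fall.

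In the list of phospholipases and arachidonate release the difference was 1.30 for Pla2g2e, 0.19 for Anxa1 (-0.04 after rescaling and -0.02 after quantile normalization, neither of which passed) and -0.45 for Pla2g15. Among further synthases it was 1.41 for Akr1c18 (1.405 before rounding), which at 0.286 and 0.279 FPKM in sgHcar1 cells in PBS and lactate had little room to fall. It was 1.04 for Akr1b8 and 0.55 for Ptgds, which did not pass with a pseudocount of 0.1 (-0.22, adjusted p = 0.71) or after rescaling to equal sums (0.01, adjusted p = 0.984). For breakdown and transport it was 1.62 for Abcc4 and -0.18 for Slco3a1, which was listed at 0 in all sgHcar1 libraries and did not pass with any 1 library left out, under the replicate block, without the filter, with a pseudocount of 0.1, after rescaling or after quantile normalization. For receptors and associated genes it was 0.38 for Ppard (0.17 after rescaling, which did not pass), -0.38 for Ptger1 and -0.50 for Ptgfrn. For the cytochrome P450 gene Cyp4f13 it was -0.37. Of the listed genes that were tested but not named, Zadh2 (-0.61), Lpcat3 (-0.46) and Pla2g4c (-0.41) passed as well, all downward. Such differences were common, since 59.1% of all genes tested passed the same test.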

How the results depend on the processing

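Of 475 values of the prostaglandin genes recomputed under an alternative, 463 kept their direction and their side of the threshold, 5 gained a call, 6 changed sign (Ptges between the guides in PBS also lost its call) and 1 lost its call with the same sign. Median-ratio scaling divided every library by the same 1.0095 and changed no call of these genes. Changing the filter, dropping the trend, adding the replicate block or fitting only the compared groups left the log2 changes themselves as they were. Direction could not change under these alternatives, which the tally counts as well. Rescaling to equal sums turned Ptges between the guides in PBS to -0.0424, Anxa1 in the difference of lactate effects to -0.038 and Gstm2 between the guides in lactate to -0.0786. Quantile normalization turned that Anxa1 difference to -0.0154 and Ptges2 between the guides in lactate to 0.113. A pseudocount of 0.1 turned the Ptgds difference to -0.221. With 1 library left out, the uncalled lactate change of Ptgr1 in sgHcar1 cells ran from -0.1734 to 0.0416, with 0.0007 without sgHcar1 PBS replicate 2 and 0.0416 without sgHcar1 lactate replicate 2. The uncalled Ptges2 difference between the guides in lactate ran from -0.0779 to 0.0692, the latter without sgControl lactate replicate 3, and was 0.0117 without sgHcar1 lactate replicate 2. The cause was not tested.

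With a mean of at least 5 FPKM, where fewer genes were tested, 6815 genes were called between the guides in PBS and 7191 in lactate, against 10529 and 11292. Leaving out 1 library gave 8524 to 8627 called genes for lactate in sgControl cells, 9541 to 9675 in sgHcar1 cells, 7716 to 7929 for their difference, 10120 to 10214 between the guides in PBS and 10980 to 11082 in lactate. Deviations of libraries with the same replicate number were hardly correlated (r -0.0505 to 0.085 over 18 pairings), and the labels do not say whether a number pairs libraries. With the replicate block 8938, 9899, 8044, 10480 and 11260 genes were called in these comparisons, and the calls of the prostaglandin genes were 5, 5, 5, 6 and 5 as before. The Slco3a1 difference was lost under the block (adjusted p = 0.0775) and with any 1 library left out. After rescaling the differences of Ptgds (0.0079) and Ppard (0.1748) did not pass.

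The ranges for lactate were 3.42 to 3.62 in sgControl cells and 4.03 to 4.47 in sgHcar1 cells for Ptgs2, and 0.62 to 0.77 and 1.81 to 2.09 for Pla2g4a. Hpgd, at 0 throughout, gave no value under any alternative. Depth limits the low genes most, but the table does not give it.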
